A study of Mus musculus with 21 samples.

Results

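The genes described here are the Wnt ligands, the Frizzled receptors that bind them and the secreted Sfrp and Dkk antagonists, read in bulk RNA sequencing of 21 mouse mammary tumors. Members were taken by name, as every gene that the deposited expression table calls Wnt, Fzd, Sfrp or Dkk followed by a number and an optional letter. This gave 33 genes (17 Wnt, 10 Fzd, 4 Sfrp and 2 Dkk) of the 23203 genes that table names, while the count files hold 49652 gene identifiers. Genes of these families outside this rule were not taken as members, and Frzb, an Sfrp-type antagonist, is read with the other pathway genes. All animals were virgin females that carried FloxNeoNeuNT, an activated Neu cDNA placed behind a loxP-flanked stop in the mouse ErbB2 locus, and MMTV-CreNLST, a mammary Cre transgene thought to act in fewer epithelial cells, or more weakly, than other lines of its kind. Each of the 9 control tumors was from a different mouse. Of these mice, 7 were Gata4(loxP/+);FloxNeoNeuNT;MMTV-CreNLST and 2 had no Gata4 loxP allele. The 12 RhoC tumors came from 8 mice of the genotype R26(RhoC/+);FloxNeoNeuNT;MMTV-CreNLST, in which Cre releases a mouse RhoC-IRES-eGFP cassette in the Rosa26 locus. Mouse P497 gave 4 of the RhoC tumors and mouse N9255 gave 2, so tumors of one animal are not independent. The ages of the mice were not given for these tumors in the sources used here.

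Wnt proteins are lipid-modified secreted ligands. On receiving cells they bind Frizzled, a family of receptors that span the membrane, and with the coreceptors Lrp5 and Lrp6 they stabilise β-catenin, which then acts with TCF/LEF factors on target genes. Other Wnts, Wnt5a among them, signal mainly through Ror and Ryk receptors and the planar polarity branch, which acts on the cytoskeleton. Sfrp proteins carry a Frizzled-like domain and bind Wnts outside the cell, and Dkk proteins mostly act on the Lrp coreceptors, although Dkk3 is a divergent member with little effect on them. In the mammary gland Wnt4 acts downstream of progesterone, and Wnt10a, Wnt10b and Wnt6 are used by embryonic mammary and skin epithelium. Wnt1 and Wnt10b are classical integration targets of the mouse mammary tumor virus.

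Total counts ranged from 47309780 to 100741339 per tumor. Levels are given below as counts per 1000000 (CPM) scaled by the trimmed mean of M-values (TMM). Rhoc itself lay between 26 and 172 CPM in control tumors (median 50.7) and between 22.8 and 148 CPM in RhoC tumors (median 88.2), with a log2 fold change of 0.19 ± 0.34 (SE) and an edgeR adjusted p of 0.774. Since the cassette holds the mouse coding sequence, its reads would count toward Rhoc, and the cohorts overlapped in it. The cohorts are named as in the labels. All 10 luminal epithelial marker genes passed the filter, with a summed level of 1927 to 6357 CPM in control and 1293 to 4934 CPM in RhoC tumors. Tumor N-17 stood apart in skeletal muscle markers, whose summed level was 18444 CPM there and at most 2285 CPM elsewhere, and in adipocyte markers, with 430 CPM there and at most 95.1 CPM elsewhere. Tumor histology, from a table of the study and not from the sample labels, is used for description only. It lists R-6, R-13 and R-14 as squamous cell carcinomas, all 3 of them RhoC tumors, and N-1 as a spindle cell tumor, and it lists none for N-17, R-18 and R-21.

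Wnt3a, Wnt7a and Wnt4 had the widest gap between the squamous cell carcinomas and the other tumors among members with a promoter entry in RefSeq, and their promoters are shown for that reason. They are the 250 bases before the start annotated in RefSeq on GRCm38.p6. The windows are Wnt3a at chr11:59290752-59291001 on the minus strand, Wnt7a at chr6:91411354-91411603 on the minus strand and Wnt4 at chr4:137277385-137277634 on the plus strand. In the gene coordinates deposited with the data, Wnt4 starts at 137277489 and Wnt7a at 91411363, so both windows run into the gene. Capitals mark the GC box GGGCGG on either strand, and neighbouring matches can overlap.
Wnt3a: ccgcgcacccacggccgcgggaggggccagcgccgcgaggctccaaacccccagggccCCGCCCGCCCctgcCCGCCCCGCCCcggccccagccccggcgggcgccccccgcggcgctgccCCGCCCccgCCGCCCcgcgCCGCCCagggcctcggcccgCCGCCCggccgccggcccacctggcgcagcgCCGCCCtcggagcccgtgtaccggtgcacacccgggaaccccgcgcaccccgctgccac
Wnt7a: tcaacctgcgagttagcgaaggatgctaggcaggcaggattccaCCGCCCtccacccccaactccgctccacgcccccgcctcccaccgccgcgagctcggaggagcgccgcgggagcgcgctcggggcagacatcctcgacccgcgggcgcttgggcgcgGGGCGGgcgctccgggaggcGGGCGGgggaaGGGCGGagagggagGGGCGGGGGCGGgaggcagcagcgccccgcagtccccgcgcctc
Wnt4: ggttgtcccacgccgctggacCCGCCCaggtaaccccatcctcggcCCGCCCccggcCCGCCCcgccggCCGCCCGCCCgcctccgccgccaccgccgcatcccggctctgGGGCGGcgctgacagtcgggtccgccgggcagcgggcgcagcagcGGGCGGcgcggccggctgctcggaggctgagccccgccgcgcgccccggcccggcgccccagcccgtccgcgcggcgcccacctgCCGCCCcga
GC boxes matched at 9 positions in Wnt3a, 6 in Wnt7a and 8 in Wnt4, and 32.7% of 32817 RefSeq promoter windows of the same length held at least 1. G and C made up 87.6%, 77.6% and 85.2% of the bases, against a median of 52.4% over all windows. The TCF/LEF motif CTTTGAT (3.21% of windows) and the AP-1 motif TGANTCA (6.75% of windows), searched on both strands, had 0 matches in the 3 windows. Promoter entries were found for 22 of the 33 members, and Wnt10a was among those without one.

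Across members, the level per transcript length (FPKM) set the order. Fzd7 (49.1 ± 17.6 FPKM, SD, n = 21) and Sfrp1 (45.7 ± 38.4 FPKM) had the highest means, followed by Wnt5a (16.7 ± 15.2 FPKM), Fzd1 (16.2 ± 6.85 FPKM), Fzd5 (15 ± 9.36 FPKM), Sfrp2 (13.6 ± 19.9 FPKM) and Dkk3 (10.3 ± 11.5 FPKM). Means of 12 members lay between 1 and 10 FPKM and those of 14 members under 1 FPKM. None of the 32 steps between neighbours in this order exceeded the larger SD of the pair. The highest ligands after Wnt5a were Wnt7b (8.53 ± 8.0 FPKM) and Wnt10a (7.81 ± 19.2 FPKM), and the mean of Wnt10a was set by few tumors, since its median was 0.115 FPKM and its maximum 76.7 FPKM. Dkk2 had 1.2 ± 0.951 FPKM and Sfrp4 0.968 ± 1.66 FPKM.

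**Figure D1:**
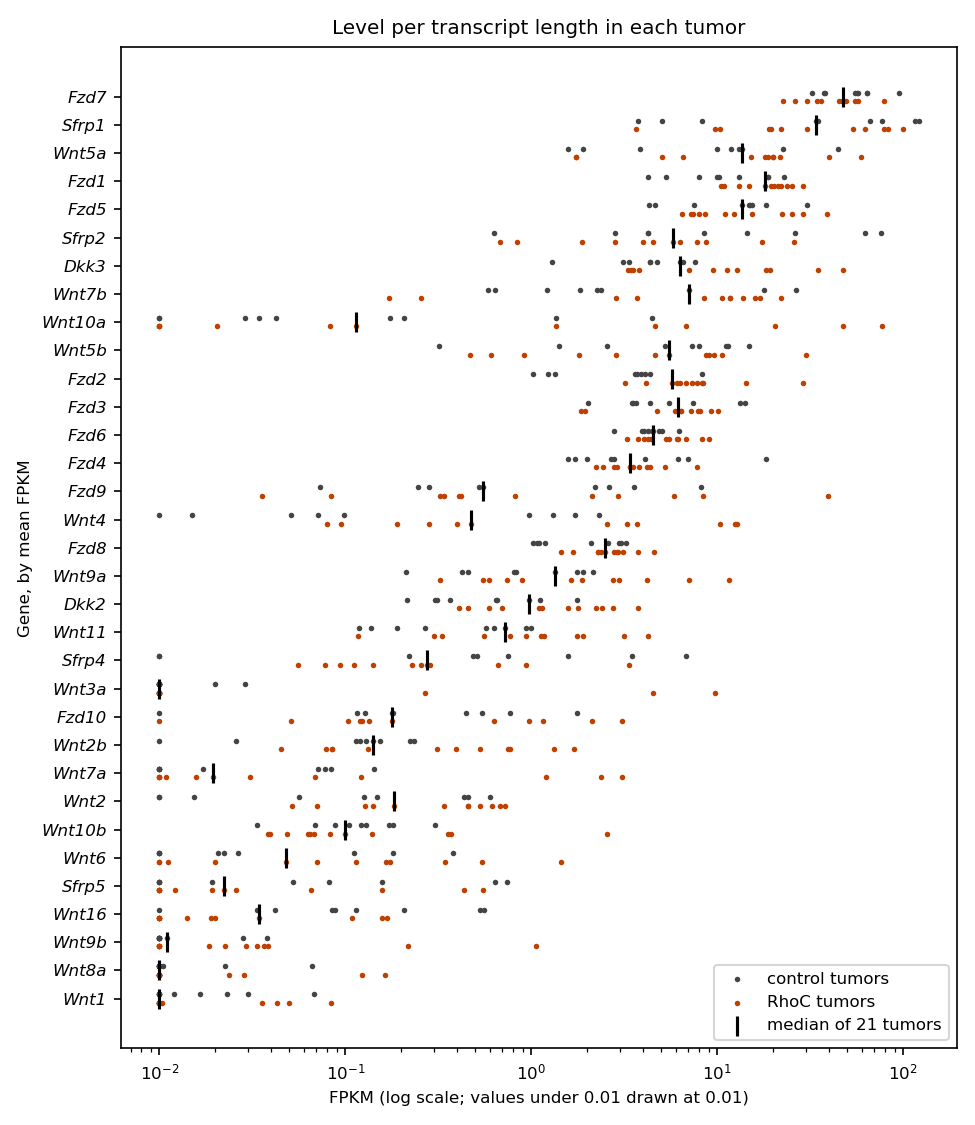
FPKM of the 33 genes in 9 control tumors (grey) and 12 RhoC tumors (orange), on a log scale, ordered by mean, with the median over 21 tumors as a tick. Fzd7 spans 22.7 to 94.8 FPKM, whereas Wnt10a runs from 0 to 76.7 FPKM with a median of 0.115 FPKM.

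The comparison of RhoC with control tumors asked which transcripts differ between Neu tumors with and without the R26 RhoC allele. Of the 33 members, 28 passed the filter on low counts, and Wnt1, Wnt3a, Wnt8a, Wnt9b and Sfrp5 did not. No member had an adjusted p under 0.05 in the edgeR quasi-likelihood test over 19315 genes, in which 43 genes (0.223%) were called. At an unadjusted p under 0.05, 10 of the 28 members were higher in RhoC tumors, where 10.5% of all tested genes were, and 2 of the 28 were lower, where 9.93% of all tested genes were. The means of 21 members were higher and those of 7 lower, with a median log2 fold change of 0.63 over the 28 members and -0.01 over all tested genes. Wnt7a, one of the 10, and Wnt6 did not pass the filter without the 3 squamous cell carcinomas, all RhoC tumors, so that these counts and the median describe the members and give no support. DESeq2 called 4 members (Wnt10a, Wnt2b, Dkk3 and Fzd2, all higher), against 5.94% of the genes it tested. Limma voom with mouse as a random effect called 0 members and 0.0155% of all genes. With counts summed per mouse, 2 members (Dkk3 and Fzd2) were higher at an unadjusted p under 0.05 (6.85% of all genes) and 0 were lower (5.89%). Without mouse P497, 3 members (Wnt10a, Dkk3 and Fzd2) were higher (6.98%) and 0 lower (4.63%). Without the 3 squamous cell carcinomas, 3 members (Wnt2b, Dkk3 and Fzd2) were higher (8.06%) and 2 (Wnt16 and Wnt10b) were lower (7.25%). In bulk tissue, fewer cells of a type and less RNA per cell cannot be told apart.

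**Figure D2:**
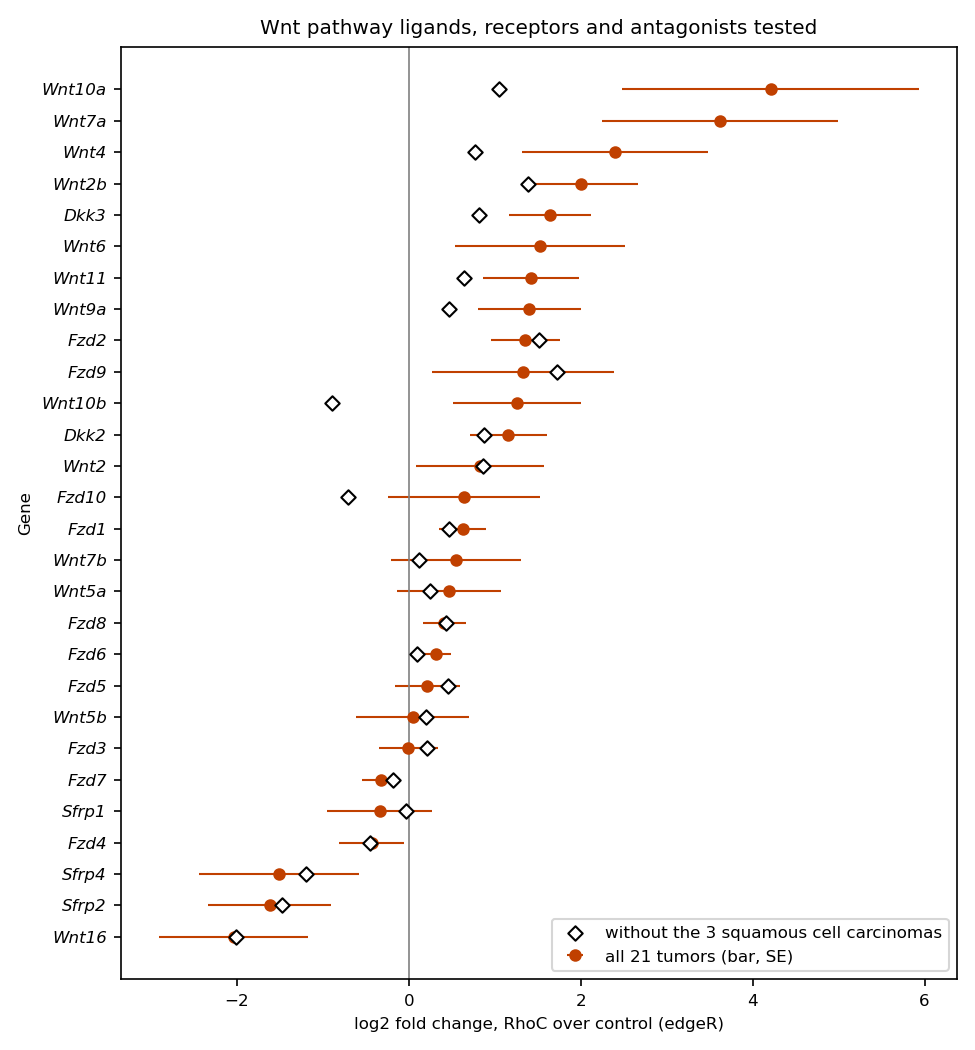
Log2 fold change (RhoC over control) of the 28 tested genes with all 21 tumors (filled, bar is the SE) and without the 3 squamous cell carcinomas (open; no value for Wnt7a and Wnt6, which then did not pass the filter). Wnt10a stands at 4.21 with all tumors and at 1.05 without those 3, while Fzd2 stands at 1.36 and 1.51.

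Among ligands, Wnt10a had the highest log2 fold change and an uneven spread over tumors. Wnt10a (1:74791516-74804179 on GRCm38), a β-catenin pathway ligand of skin and mammary epithelium, had 0 to 11 CPM in control tumors with a median of 0.104 CPM. The highest control was N-1, and N-9 with 3.44 CPM was the only other control above 1 CPM. RhoC tumors ran from 0 to 186 CPM with a median of 1.86 CPM, led by R-6 (186 CPM), R-13 (115 CPM) and R-14 (50.6 CPM), and then R-2 (16.9 CPM), R-12 (11.6 CPM) and R-15 (3.43 CPM). The other 6 RhoC tumors lay under 1 CPM, so the cohorts overlapped widely. The log2 fold change was 4.21 ± 1.73 (SE), with an edgeR adjusted p of 0.183. With 1 tumor left out it ran from 3.38 to 5.77, and with counts summed per mouse it was 3.34 (edgeR unadjusted p 0.0597). Without the squamous cell carcinomas it was 1.05, with an adjusted p of 0.750. Wnt6, its neighbour on chromosome 1 at 6193 bases, reached 3.01 CPM in R-2 and 1.10 CPM in R-6 and at most 0.799 CPM in controls (log2 fold change 1.53 ± 0.99, edgeR adjusted p 0.385).

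Wnt7a, Wnt4 and Wnt3a showed the same 3 tumors on top. Wnt7a, a ligand of epithelium and of the female reproductive tract, had 9.59 CPM in R-6, 7.39 CPM in R-13 and 3.82 CPM in R-14, and at most 0.45 CPM in the other 18 tumors. It passed the filter only through those 3 tumors, with means of 0.144 CPM in controls and 0.095 CPM in the other 9 RhoC tumors, and its log2 fold change of 3.62 ± 1.37 (SE; edgeR adjusted p 0.157) rests on them. No value was obtained for it without them or per mouse. Wnt3a, a canonical ligand that the filter removed, had 26.5 CPM in R-6, 12.2 CPM in R-13 and 0.742 CPM in R-14, with at most 0.0812 CPM in any other tumor and 0 reads in 12 tumors. Wnt9a lies 16175 bases from Wnt3a on chromosome 11 and was also highest in R-13 (37.8 CPM) and R-6 (23.1 CPM), but R-12 (14.2 CPM) was above R-14 (9.91 CPM). Controls had 0.718 to 7.13 CPM of Wnt9a with a median of 2.77 CPM, and RhoC tumors 1.09 to 37.8 CPM with a median of 5.90 CPM (log2 fold change 1.40 ± 0.60, edgeR adjusted p 0.196). The log2 fold change of Wnt9a was 0.47 without the squamous cell carcinomas and 0.84 with counts summed per mouse (edgeR unadjusted p 0.371 and 0.149). Wnt4, the progesterone-responsive ligand of mammary luminal cells, had 0.0332 to 9.71 CPM in controls (median 0.42 CPM) and 0.34 to 52.5 CPM in RhoC tumors (median 6.41 CPM). R-6, R-14 and R-13 had 52.5, 52.4 and 42.9 CPM of Wnt4, and 10 of the 12 RhoC tumors were above the control median. Its log2 fold change was 2.40 ± 1.08 (edgeR adjusted p 0.217), and 0.76 without the squamous cell carcinomas.

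**Figure D3:**
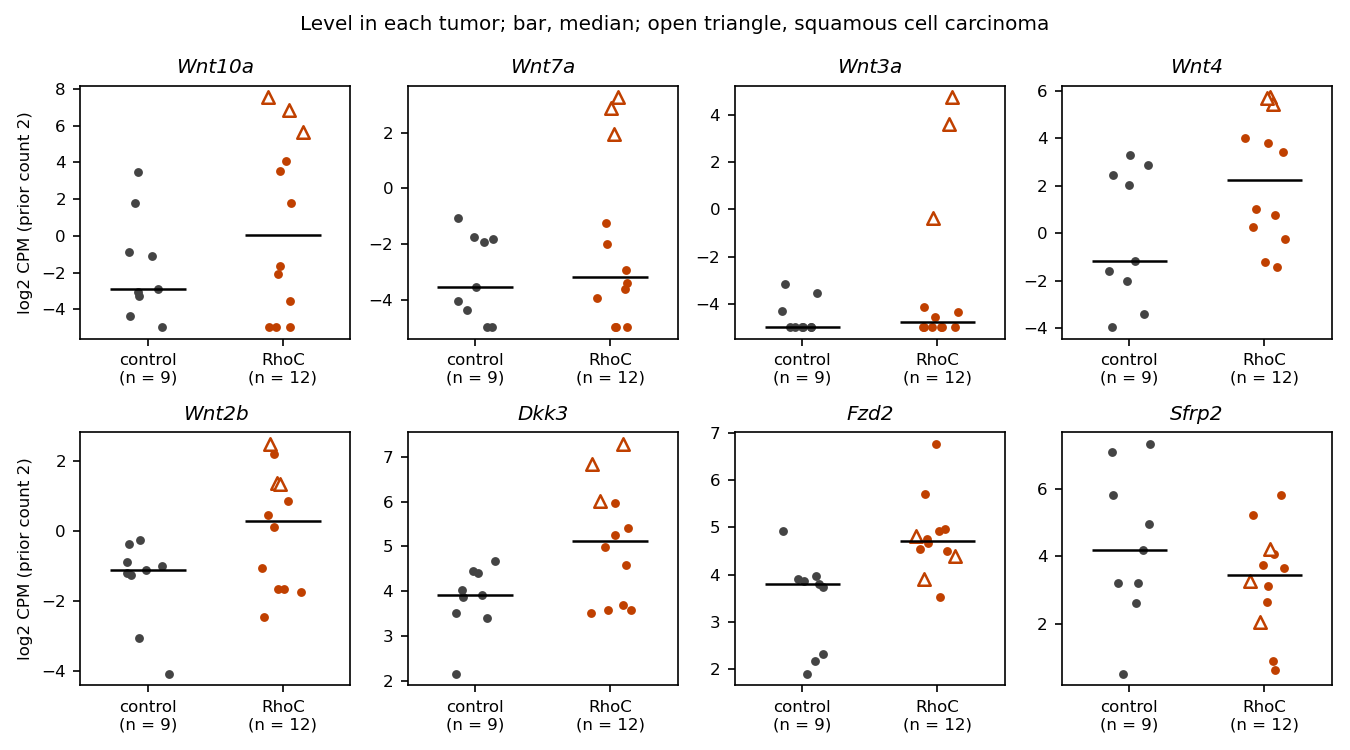
Log2 CPM (prior count 2) of 8 genes in each of 9 control and 12 RhoC tumors, with the median as a bar and the 3 squamous cell carcinomas as open triangles. The triangles lie above all other tumors for Wnt10a, Wnt7a, Wnt3a and Wnt4, and within the other RhoC tumors for Fzd2 and Sfrp2.

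Wnt2b, a canonical ligand, was high in more tumors than those 3. Controls had 0.0271 to 0.801 CPM (median 0.43 CPM) and RhoC tumors 0.148 to 5.54 CPM (median 1.18 CPM). The 7 RhoC tumors above every control were R-13, R-15, R-6, R-14, R-16, R-12 and R-18, of which 4 came from mouse P497. Its log2 fold change was 2.0 ± 0.66 (SE, edgeR adjusted p 0.119), and 1.39 without the squamous cell carcinomas (unadjusted p 0.0469, adjusted p 0.320 in the same edgeR test). With counts summed per mouse it was 1.25 (edgeR unadjusted p 0.0601). Wnt11, a ligand of the planar polarity branch, had 0.501 to 4.08 CPM in controls (median 2.43 CPM) and 0.477 to 17.3 CPM in RhoC tumors (median 4.31 CPM), with R-6, R-13 and R-14 on top (log2 fold change 1.42 ± 0.56, edgeR adjusted p 0.169). Without those 3 tumors it was 0.64 and with counts summed per mouse 0.91 (edgeR unadjusted p 0.219 and 0.120). Wnt10b had 8.55 CPM in R-6 and at most 1.27 CPM in the other 20 tumors. Its log2 fold change of 1.26 ± 0.74 (edgeR adjusted p 0.340) became -0.11 without R-6 and -0.90 without the 3 squamous cell carcinomas.

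For Wnt16, Wnt5a and Wnt7b the highest tumor was not one of the squamous cell carcinomas. Wnt16 had 0.0135 to 2.49 CPM in controls (median 0.382 CPM) and 0 to 0.743 CPM in RhoC tumors (median 0.0716 CPM), and 8 of the 9 controls were above the RhoC median. Its highest tumors were N-17 (2.49 CPM) and N-4 (2.31 CPM), and the log2 fold change was -2.04 ± 0.86 (SE; edgeR adjusted p 0.195). With counts summed per mouse it was -1.82 (edgeR unadjusted p 0.0720). Wnt5a, the most abundant ligand per length, had 12.6 to 358 CPM in controls (median 92.5 CPM) and 13.7 to 473 CPM in RhoC tumors (median 145 CPM), with R-10 highest and N-9 next. The log2 fold change of Wnt5a was 0.46 ± 0.61 (edgeR adjusted p 0.685), which is smaller than its standard error, and became 0.15 without R-10 and 0.94 without N-9. Wnt7b had 2.93 to 130 CPM in controls (median 11.1 CPM) and 0.857 to 107 CPM in RhoC tumors (median 54.3 CPM). Although 10 of the 12 RhoC tumors were above the control median for Wnt7b, N-15 had the highest level of all and the log2 fold change was 0.55 ± 0.76 (edgeR adjusted p 0.702), or 1.21 without N-15 and 0.12 without the squamous cell carcinomas. Those 3 had 67.9 to 107 CPM of Wnt7b, with a mean of 85.6 CPM against 35.9 CPM in the other 9 RhoC tumors. Wnt9b, untested, had 4.88 CPM in R-21 and at most 0.99 CPM elsewhere. Wnt1 and Wnt8a stayed under 0.3 CPM in every tumor.

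Of the 28 tested members, 7 (Wnt10a, Wnt7a, Wnt4, Wnt10b, Wnt11, Dkk3 and Fzd6) had all 3 squamous cell carcinomas above all 18 other tumors, where 2.20% of all tested genes did. No test is attached to this count, since 2 of the 3 tumors share a mouse, and Wnt7a is no support in it, having passed the filter only through these tumors. Both mice that gave a squamous cell carcinoma also gave tumors of other histology. In mouse N9255, R-6 was compared with the complex adenocarcinoma R-7, and in mouse P497, R-13 and R-14 with R-15 and R-16. The squamous tumors were above the others of their own mouse in both animals for 11 of the 28 members, where 19.4% of all tested genes were. These 11 include Wnt7a and Wnt6, which did not pass the filter without the squamous tumors, so they add no support to the count. For Wnt10a the values were 186 CPM in R-6 against 0.286 CPM in R-7, and 115 and 50.6 CPM in R-13 and R-14 against 3.43 and 0.204 CPM in R-15 and R-16. For Wnt4 they were 52.5 CPM against 0.403 CPM in the first mouse, and 42.9 and 52.4 CPM against 16 and 2.01 CPM in the second.

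**Figure D4:**
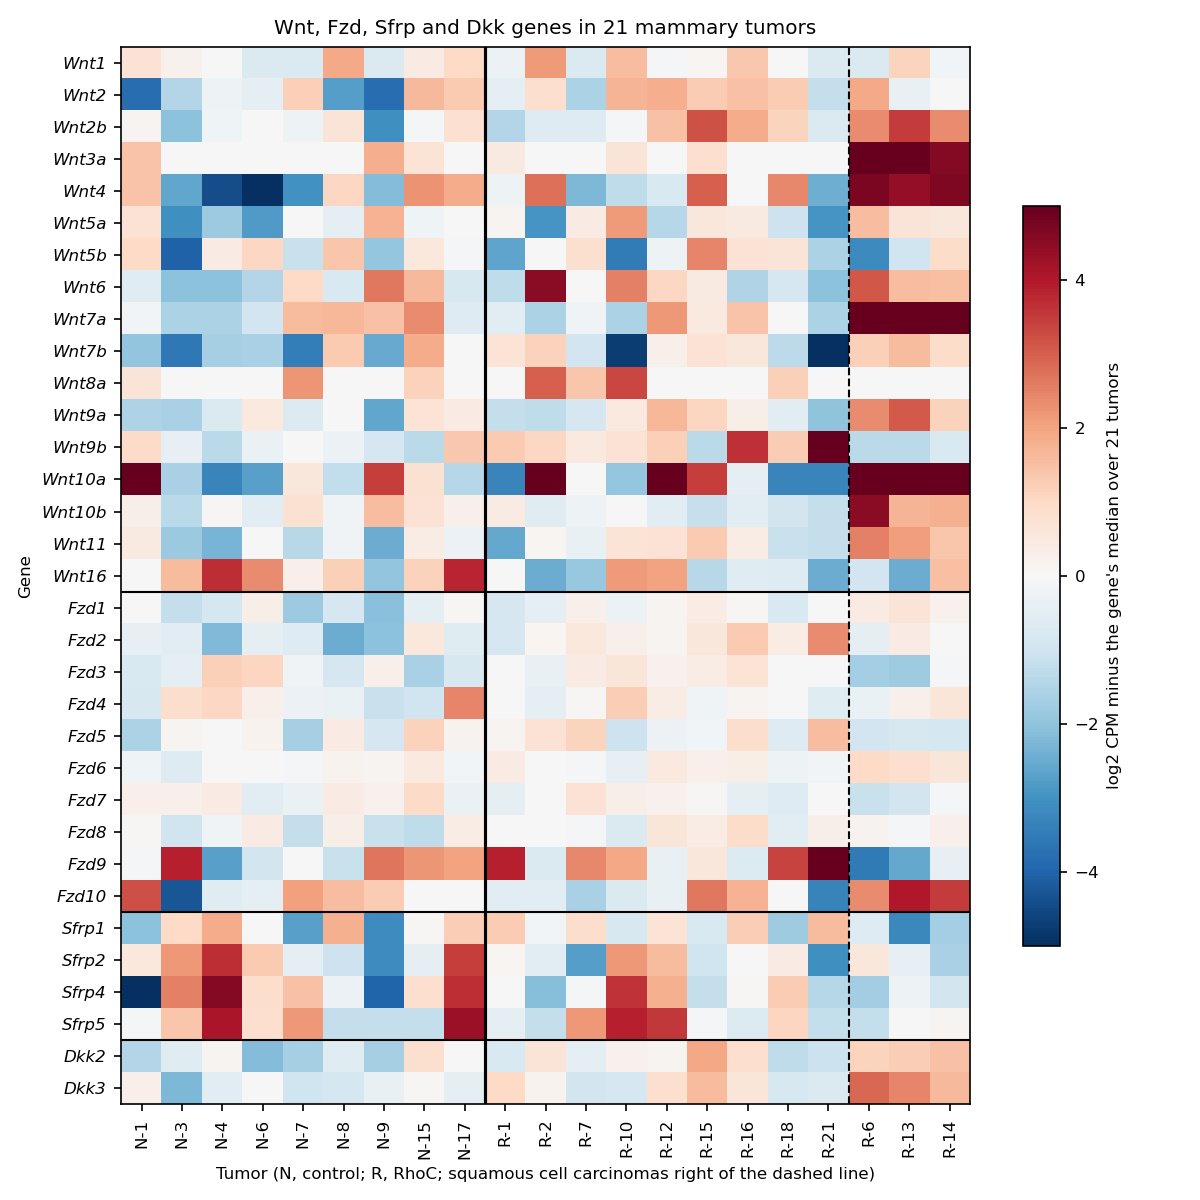
Log2 CPM of each gene minus its median over 21 tumors (colour, limits drawn at -5 and 5) in control tumors, RhoC tumors and, right of the dashed line, the 3 squamous cell carcinomas. The block of red at the right covers Wnt3a, Wnt4, Wnt7a and Wnt10a, and the Sfrp2, Sfrp4 and Sfrp5 rows are red in N-4, N-17 and R-10.

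Some keratinocyte genes were high in the same tumors as these ligands. Of 10 squamous keratinocyte markers, 9 were found and 6 passed the filter, and 7 had 0 reads in at least 1 tumor. Their summed level was 14.9 to 1731 CPM in controls, 3.99 to 8514 CPM in RhoC tumors and 2202 to 8514 CPM in the squamous cell carcinomas. Not all markers followed the sum. Krt10, a keratin of differentiated skin layers, had 1.09 to 2.21 CPM in the squamous cell carcinomas and 285 CPM in N-1. Its log2 fold change was -5.07 ± 1.10 (SE, edgeR adjusted p 0.0536), although its medians were 0.960 CPM in control and 1.03 CPM in RhoC tumors. Krt1, its partner keratin, had 0.10 to 1.92 CPM in the squamous cell carcinomas and 45.6 CPM in N-1. Dsg1a, a desmosomal cadherin, was highest in R-2 (677 CPM), and Krt13 had 0 reads in R-13. The 10 basal epithelium markers had a summed level of 7985 to 22129 CPM in those 3 tumors and of at most 6916 CPM in the others, but differed among themselves. Krt5, a basal keratin, was the only one of the 10 with all 3 above all others (at least 2875 CPM against at most 1608 CPM). Mylk, the myosin light chain kinase of contractile cells, had all 3 below all others (12.6 to 16.1 CPM against at least 25.2 CPM), and Krt17 in N-7 (815 CPM) was above R-6 and R-14. The 8 tumors with the highest marker sum (N-1, N-9, N-15, R-2, R-6, R-12, R-13 and R-14, each at 336 CPM or more) held 7 of the 8 highest Wnt10a levels, and the exception was R-15. In the other 13 tumors, whose sum was at most 130 CPM, Wnt10a was at most 0.433 CPM apart from R-15. The same 8 tumors held 5 of the 8 highest levels of Wnt4, Wnt11 and Dkk3. The squamous cell carcinomas are among the 8 and were known to be on top for these genes, so 3 tumors of each count were fixed beforehand and the counts are a description. Wnt4 reached 16 CPM in R-15 and 10.8 CPM in R-18, both among the 13 with a low sum. The part of squamous cells in the cohort difference was not tested.

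Among receptors, Fzd2 and Fzd1 had an unadjusted p under 0.05, and both were higher in RhoC tumors. Fzd2, a receptor for Wnt3a and Wnt5a in cell culture, had 3.74 to 30.3 CPM in controls (median 14 CPM) and 11.6 to 109 CPM in RhoC tumors (median 26.1 CPM), and 11 of the 12 RhoC tumors were above the control median. R-21 was highest, and N-15 was the only control above the RhoC median. The log2 fold change was 1.36 ± 0.41 (SE; edgeR adjusted p 0.0955) and 1.51 without the squamous cell carcinomas. Its edgeR adjusted p was 0.0465 without N-15, a setting that called 1.77% of all genes. With only the Gata4(loxP/+) controls, which also leaves out N-15, it was 0.0483, and 2.22% of all genes were called. No RhoC tumor carried that allele, so cohort and Gata4 genotype cannot be told apart there. The adjusted p of Fzd2 was 0.146 without the squamous cell carcinomas, 0.255 with counts summed per mouse and 0.224 by limma voom with mouse as a random effect. Fzd1 had 18.2 to 95.5 CPM in controls (median 43.1 CPM) and 43.2 to 120 CPM in RhoC tumors (median 83.6 CPM). All 12 RhoC tumors were above the control median for Fzd1, and the log2 fold change was 0.62 ± 0.27 (edgeR adjusted p 0.201), or 0.47 without the squamous cell carcinomas (edgeR unadjusted p 0.121).

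Fzd7, a receptor studied in mammary stem cells and the most abundant member per length, had 146 to 429 CPM in controls (median 258 CPM) and 102 to 360 CPM in RhoC tumors (median 211 CPM), with a log2 fold change of -0.32 ± 0.22 (edgeR adjusted p 0.400). Fzd5 had 30.1 to 210 CPM and 45.8 to 274 CPM in the respective cohorts (log2 fold change 0.22 ± 0.38, edgeR adjusted p 0.771). For both genes most tumors of one cohort lay within the range of the other. Fzd9 had 92.7 CPM in R-21, 19.1 CPM in N-3 and 18.9 CPM in R-1, and its log2 fold change of 1.33 ± 1.06 (edgeR adjusted p 0.485) became -0.06 without R-21. Fzd10 had 9.80 CPM in R-13, 6.91 CPM in R-14 and 5.72 CPM in N-1, with a log2 fold change of 0.64 ± 0.88 (edgeR adjusted p 0.700) and of -1.13 without mouse P497. Fzd3, Fzd4, Fzd6, Fzd8, Wnt2 and Wnt5b had log2 fold changes between -0.43 and 0.83 and edgeR adjusted p-values from 0.314 to 0.993. Some 17.8% of the exon bases of Fzd5 and 16.1% of those of Sfrp2 overlap an annotated gene on the opposite strand, and the strand setting of the counting is not given in the sources used here.

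Among antagonists, the means of Dkk2 and Dkk3 were higher and the 3 tested Sfrp means lower in RhoC tumors. Dkk3, the divergent Dickkopf, had 4.43 to 25.4 CPM in controls (median 15 CPM) and 11.3 to 157 CPM in RhoC tumors (median 35.1 CPM). The 7 RhoC tumors above every control were R-6 (157 CPM), R-13 (115 CPM), R-14 (64.9 CPM), R-15 (63.1 CPM), R-1 (42.4 CPM), R-12 (38.3 CPM) and R-16 (31.9 CPM), of which 4 came from mouse P497, and no control was above the RhoC median. Its log2 fold change was 1.64 ± 0.48 (SE; edgeR adjusted p 0.0901), the smallest adjusted p among members, and 0.82 without the squamous cell carcinomas (unadjusted p 0.0409, adjusted p 0.307 in the same edgeR test). Dkk2, which binds Lrp6, had 0.797 to 6.51 CPM in controls (median 2.43 CPM) and 1.52 to 14.3 CPM in RhoC tumors (median 5.10 CPM), with a log2 fold change of 1.16 ± 0.45 (edgeR adjusted p 0.164). Its 5 RhoC tumors above every control were R-15, R-14, R-13, R-6 and R-16, of which 4 came from mouse P497, and with counts summed per mouse its log2 fold change was 0.71 (edgeR unadjusted p 0.139). Without the squamous cell carcinomas it was 0.87 (edgeR unadjusted p 0.0840).

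Sfrp2 had a lower mean in the RhoC cohort, with an unadjusted p under 0.05 that rested on few tumors. Controls had 1.39 to 163 CPM (median 18.1 CPM) and RhoC tumors 1.49 to 57.2 CPM (median 11.1 CPM), so the medians lay close and the ranges overlapped from the bottom up. The controls N-4 (163 CPM) and N-17 (137 CPM) were the only tumors above 60 CPM, and the log2 fold change was -1.62 ± 0.72 (SE; edgeR adjusted p 0.211). Its unadjusted p of 0.0344 became 0.120 with counts summed per mouse, where the log2 fold change was -1.33, in the same edgeR test. Without the squamous cell carcinomas the edgeR unadjusted p was 0.0865 and the log2 fold change -1.47. The unadjusted p was also no longer under 0.05 without N-4, where the log2 fold change was -1.11, or without N-17, where it was -1.24. Sfrp4 had the same controls on top, N-4 with 28.5 CPM and N-17 with 15 CPM, followed by R-10 with 14.3 CPM, and a log2 fold change of -1.51 ± 0.93 (edgeR adjusted p 0.361), which became -0.73 without N-4 and -2.45 without R-10. Sfrp5, untested, exceeded 1 CPM in N-17 (1.44 CPM), N-4 (1.22 CPM) and R-10 (1.07 CPM). Sfrp1, which is often silenced in breast cancer, had 16.7 to 533 CPM in controls (median 152 CPM) and 15.8 to 447 CPM in RhoC tumors (median 115 CPM), with a log2 fold change of -0.34 ± 0.61 (edgeR adjusted p 0.778).

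To see which members followed the make-up of the tissue, each tested member was set against 2 marker scores over the 17 mice, taking the mean of a mouse's tumors. The fibroblast list (Col1a1, Col1a2, Col3a1, Pdgfra, Pdgfrb, Dcn, Lum, Fap, Thy1 and Fn1) had a summed level of 450 to 8998 CPM in control and 1805 to 16688 CPM in RhoC tumors. The medians of this sum were 6048 CPM in control and 4965 CPM in RhoC tumors. The genes of the list differed among themselves, with 6 means higher and 4 lower in RhoC tumors. Fzd4, the Norrin receptor of endothelium, followed the fibroblast score with a Spearman coefficient of 0.83 (permutation p 9e-05, adjusted p 0.0146 over all tested genes) and a Pearson r of 0.77 (permutation p 0.0007). Sfrp4 followed it with a Spearman coefficient of 0.79 (permutation p 0.00026, adjusted p 0.0250 over all tested genes) and an r of 0.81 (permutation p 0.00011). A positive Spearman coefficient passed this adjustment for 2 members and 1.71% of all tested genes, and a negative one for 0 members and 0.492%. For Wnt16 the Spearman coefficient was 0.72 and r 0.70, and for Sfrp2 they were 0.69 and 0.78, with permutation adjusted p-values for the Spearman coefficient of 0.0594 and 0.0734 over all tested genes. Within control mice the Spearman coefficient was 0.90 for Fzd4 and 0.92 for Sfrp4 (exact permutation p 0.00203 and 0.00131, n = 9), and within RhoC mice 0.74 and 0.50 (exact permutation p 0.0458 and 0.216, n = 8). Without mice N7889 and N9931, the farthest from the median score, it was 0.76 for Fzd4 and 0.71 for Sfrp4 and r was 0.77 for each (permutation p for the Spearman coefficient 0.00161 and 0.00382, unadjusted, n = 15). Under the planned adjustment 0 members passed without those 2 mice and 0 within RhoC mice. The summed endothelial markers were 781 CPM in N-17, which had the highest Fzd4 (126 CPM), and at most 501 CPM elsewhere, and the summed adipocyte markers were also highest there. The parts of endothelium and fat in this relation were not tested.

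With the luminal epithelium score, Wnt5b had a Spearman coefficient of 0.75 and an r of 0.76 (permutation p 0.00099 and 0.00048) and Fzd10 one of 0.71 and an r of 0.63 (permutation p 0.00205 and 0.00754). Neither passed an adjustment over all tested genes, which 0.00% of genes passed in this score. Without N5759 and N9931, the mice farthest from the median of this score, the Spearman coefficient was 0.64 for Wnt5b and 0.59 for Fzd10. Correlations were computed for 28 members with 2 scores. In the luminal list, Krt19 ran from 0.0739 CPM in R-21 to 4079 CPM in N-7, and its weight in the score was not tested.

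**Figure D5:**
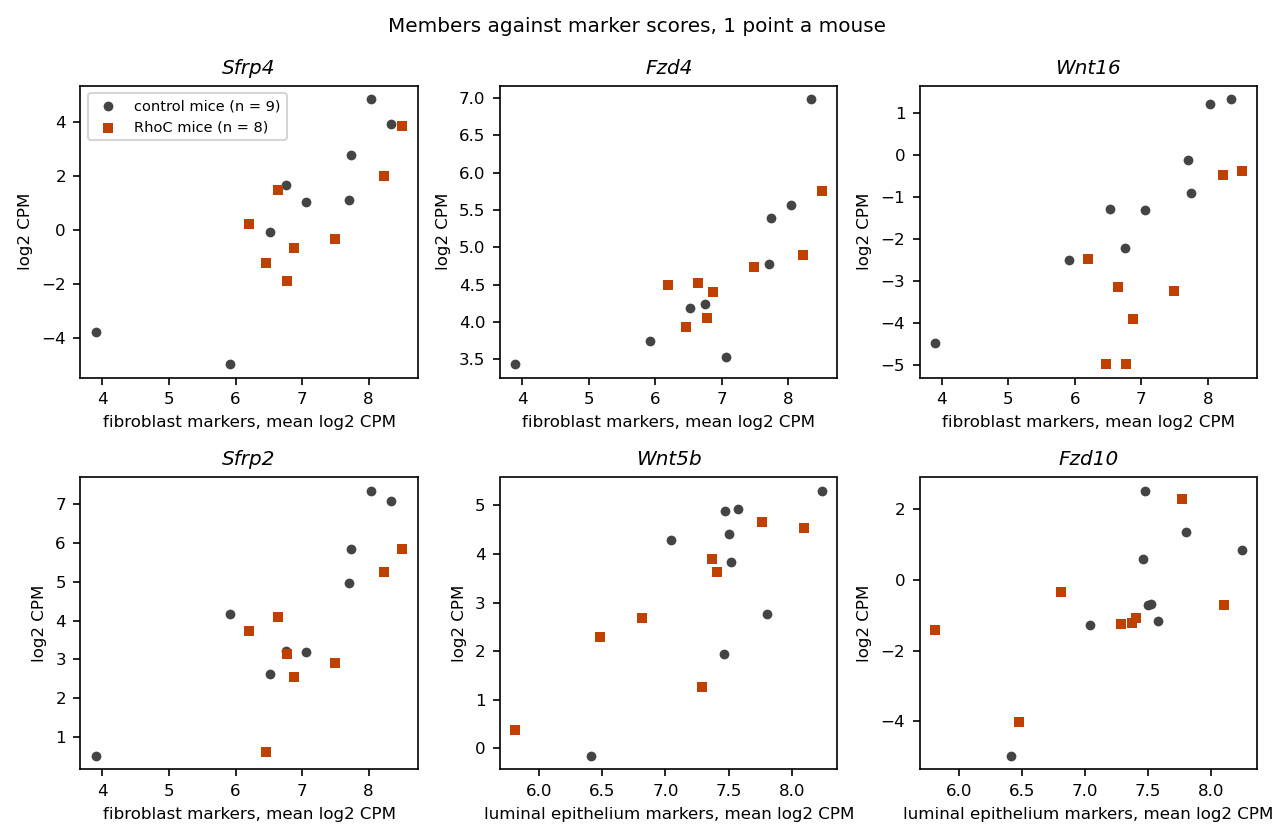
Mean log2 CPM of 6 genes per mouse (9 control, 8 RhoC) against the mean log2 CPM of 10 fibroblast or 10 luminal epithelial markers. Sfrp4 and Fzd4 climb with the fibroblast score, and the control mouse at the far left is N7889, the source of N-9.

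The other parts of the pathway were read from 6 lists of 69 distinct genes, of which 64 were tested. A single one, Pygo2, passed the adjusted threshold, which 0.223% of all tested genes passed. Pygo2, a chromatin-reading partner of β-catenin, had 12.2 to 34.5 CPM in controls (median 22.6 CPM) and 31.6 to 60.7 CPM in RhoC tumors (median 42.5 CPM), with a log2 fold change of 0.85 ± 0.17 (SE; edgeR adjusted p 0.0326). All 12 RhoC tumors were above the control median, and the ranges met between 31.6 and 34.5 CPM. Without the squamous cell carcinomas its log2 fold change was 0.72 (edgeR adjusted p 0.107). Under edgeR with library size, with counts summed per mouse, without the squamous cell carcinomas, without N-1 or without P497, and by limma voom with mouse as a random effect, 0 of the pathway genes were called, and DESeq2 called 7 (5.94% of the genes it tested). At an unadjusted p under 0.05, 7 of the 64 were higher and 2 lower (10.5% and 9.93% of all tested genes), and their median log2 fold change was 0.02.

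In the secretion list, Porcn, the acyltransferase that lipidates Wnts, had 1.22 to 9.24 CPM in controls and 2.68 to 45.5 CPM in RhoC tumors, led by R-6 (log2 fold change 1.71 ± 0.56, edgeR adjusted p 0.116). The 3 squamous cell carcinomas had at least 25.8 CPM of it and every other tumor at most 16.8 CPM, and without them the log2 fold change was 0.56 (edgeR adjusted p 0.509). Wls, the Wnt carrier, had a log2 fold change of -0.41 ± 0.28 (edgeR adjusted p 0.407). Of 15 tested modulators, some are secreted and others sit in the membrane. Among them Frzb, a further Sfrp-type antagonist, had a median of 0.672 CPM in control and 3.91 CPM in RhoC tumors. Its log2 fold change was 1.92 ± 0.55 (edgeR adjusted p 0.0886), with 11 of the 12 RhoC tumors above the control median. The RhoC tumors above every control were R-15, R-21, R-16, R-13, R-14 and R-6, of which R-13 to R-16 came from mouse P497. Rspo3, an amplifier of Wnt signalling, had 27.7 CPM in R-21 and at most 1.46 CPM in controls (log2 fold change 3.14 ± 1.01, edgeR adjusted p 0.113). Of 6 coreceptors, Ror2 and Lrp6 had the smallest p (log2 fold changes 1.21 ± 0.59 and 0.56 ± 0.33, edgeR adjusted p 0.249 and 0.332).

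The 15 tested β-catenin targets had a median log2 fold change of -0.31, with 5 means higher and 10 lower. Ccnd1, the cyclin, had 222 to 1160 CPM in controls and 358 to 1531 CPM in RhoC tumors (log2 fold change 0.97 ± 0.29, edgeR adjusted p 0.0993), and Sox9 followed (1.23 ± 0.65, edgeR adjusted p 0.282). Of the intracellular relay, Dvl3 came after Pygo2 (0.32 ± 0.14, edgeR adjusted p 0.210). In the planar polarity list, the formin Daam2 had a log2 fold change of -0.97 ± 0.37 and Rac1 of 0.26 ± 0.15 (edgeR adjusted p 0.157 and 0.323).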

How the data were processed

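RNA of 21 mammary tumors (9 control, 12 RhoC) had been sequenced from ribosome-depleted total RNA libraries. Per the labels, the submitters' processing notes name FastQC 0.11.5, Trim Galore 0.5.0, STAR 2.6.0c and HTSeq 0.6.1p2 with GRCm38.p6. The authors deposited raw counts per gene and tumor, taken from uniquely mapping reads that fell on 1 gene. The authors also deposited FPKM values per tumor, which were used for levels between genes and are scaled by length and library. Their tables hold, besides, the authors' own log2 fold changes and p-values, which were not used.

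From the counts, edgeR 4.0.16 (R 4.3.3) was run with TMM, filterByExpr by cohort and the quasi-likelihood test without covariates, on 19315 of 38730 genes with a count, with Benjamini-Hochberg adjustment over all of them at 0.05. The SE is the log2 fold change divided by the square root of F. Log2 CPM used a prior count of 2. Correlations used 100000 permutations of mice, or exact permutation within cohorts, 2-sided. They had been planned with adjustment over the 28 members and 2 scores, and are printed with adjustment over all tested genes. Alternatives were DESeq2 1.42.0, voom in limma 3.58.1, other scalings and subsets of tumors. The tests between cohorts and the correlation test were tried on simulated data.

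Named with values are members with an unadjusted p under 0.05, the 3 of each family with the highest mean FPKM, those whose highest tumor passed 1 CPM and 10 times the median tumor, and Wnt10a. Other pathway genes are named where called or among the 2 smallest p of a list. Further values were chosen after they were seen. Members and lists were chosen with earlier results of these data known. The mouse of R-18 is not given in the labels and was taken as its own, and the mouse given for R-21 is listed for another tumor in the study's table. Total counts were 47309780 to 100741339, and tumors R-15 and R-16, the closest pair, differed beyond sampling noise (chi-square per degree of freedom 319).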

Additional observations from a re-analysis of the deposited data

Results flagged for a closer look

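Among the 9 control tumors, 25 named members were checked for a tumor that stands apart from the rest. For Dkk3, the lowest control was N-3 with 4.43 CPM, and the next was at 10.5 CPM. On the log2 scale this gap made up 0.494 of the range over the controls, just above the critical value of 0.493 for 9 samples. Chance alone flags about 1 in 20 such groups, and the 12 RhoC tumors were not checked in this way.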

How the results depend on the processing

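Counts of genes with an adjusted p under 0.05 ranged widely. All tested genes gave 43 calls, against 1452 by DESeq2, 27 with library size, 3 with counts summed per mouse, 3 by voom, 438 with only Gata4(loxP/+) controls, 26 without squamous cell carcinomas, 19 without N-1, 3 without mouse P497 and 14 to 346 without 1 tumor (346 without N-15, 14 without N-9). Members gave 0 calls, against 4 by DESeq2, 1 (Fzd2) with only Gata4(loxP/+) controls and 0 to 1 without 1 tumor. The 1 pathway call became 7 by DESeq2, 2 with only Gata4(loxP/+) controls, 0 to 1 without 1 tumor, and 0 with library size, per mouse, by voom, without squamous cell carcinomas, without N-1 and without P497. The 10 members higher at an unadjusted p under 0.05 became 2 per mouse, 4 by voom, 3 without squamous cell carcinomas, 3 without P497 and 6 to 11 without 1 tumor (6 without R-6 or R-13). The 2 lower became 0 per mouse, 1 by voom, 0 with only Gata4(loxP/+) controls, 0 without P497 and 0 to 3 without 1 tumor (0 without N-4 or N-17). For voom, the Gata4(loxP/+) controls and the fits without 1 tumor, the share of all genes at this level is not given. Those member counts are a description. Of the members that followed the fibroblast score under the planned adjustment, 4 in all, 0 did so within RhoC mice or without the 2 farthest mice. For the luminal score 2 became 1 with library size and 0 within either cohort or without the 2 farthest mice. The causes were not tested.

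Replicate numbers shared by the cohorts (1, 6, 7 and 15) did not pair tumors, with correlations of their deviations of -0.24, -0.18, -0.003 and 0.02. On those 8 tumors the replicate block gave 0 calls over all genes, 0 in the pathway lists, and 2 members higher and 1 lower at the nominal level. The same 8 tumors without the block, an alternative chosen after seeing the data, gave 0, 0, 1 and 1. The share of all genes at the nominal level is not given for these settings, so their member counts are a description.

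Of 706 log2 fold changes of 22 named members under alternatives, 685 kept direction and call, 6 passed the threshold and 15 changed sign. Wnt10b became -0.13 by DESeq2, -0.091 by voom, -0.90 without squamous cell carcinomas and -0.11 to 1.5 without 1 tumor (-0.11 without R-6). Fzd10 became -0.47 per mouse, -0.034 by voom, -0.71 without squamous cell carcinomas, -1.13 without P497, -0.55 with the replicate block and -0.34 on its 8 tumors without it. Fzd9 became -0.078 by DESeq2 and -0.059 to 2.02 without 1 tumor (-0.059 without R-21). Sfrp1 became 0.084 by voom, 1.34 with the replicate block and 1.15 on its 8 tumors without it. The count of 7 members with all 3 squamous cell carcinomas on top was 6 with library size, 7 without N-1 and 7 without N-17 and R-10, alternatives chosen after seeing the data. All 3 squamous cell carcinomas were RhoC tumors from 2 mice.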
